A study of Bos grunniens and Bos taurus with 11 samples.

Results

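Among 11 small RNA libraries of lung tissue, the 6 libraries of yaks (Bos grunniens) from 3400 m and 5000 m differed sharply in one predicted microRNA name, m1080-5p, and this account describes what else differed with it. The libraries were grouped by the measured level of m1080-5p itself. Those under 250000 RPM (reads per 1000000 assigned reads, as deposited) were called low, and those above 500000 RPM were called high. The low libraries were T1 1, T3 1 and T3 2, and the high libraries were T1 2, T1 3 and T3 3, so each altitude held libraries of both kinds and together they made up 6 of 11. T1 stands for yaks from 3400 m and T3 for yaks from 5000 m, 3 animals each. The series further held 3 yaks from 4200 m (T2) and 2 Zaosheng cattle from 1500 m (CON), a lowland breed, which did not enter the grouping and were set beside it as values. Per the study's methods all animals were indigenous adult males, healthy at sampling, with no treatment given in the labels, and each library was 1 animal. The tissue label reads lung for every library, while the extraction text of the same records speaks of retina. No tissue marker could be looked up among the names, because the predicted ones bear only numbers. The grouping rests on a measured value, so every difference between low and high libraries is given as a description without a test.

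MicroRNAs (miRNAs) are small RNAs that guide an Argonaute protein to messenger RNAs and lower their translation and stability. A miRNA is cut from a hairpin precursor by the enzymes Drosha and Dicer. Either side of the hairpin can give a mature miRNA, named 5p or 3p after its arm, and usually one arm prevails in a tissue. Because sequencing counts reads from a fixed total, a single very abundant miRNA lowers the share of every other name in the same library. For this reason the levels of all other names are given below as reads per 1000000 reads left after m1080-5p was taken out, called RPM left.

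The name m1080-5p held 217486 RPM in T1 1, 127949 RPM in T3 1 and 101017 RPM in T3 2. In the high libraries it held 554623 RPM in T1 2, 550452 RPM in T1 3 and 582499 RPM in T3 3. The level was 3.98-fold higher in the high libraries by geometric means, and these are the values that chose the groups. The library just inside the lower limit was T1 1, and T1 3 was just inside the upper limit, with no library of the 6 between them. Outside the grouping, CON 1 held 464770 RPM and T2 2 held 351091 RPM, both between the limits, whereas CON 2, T2 1 and T2 3 held 645332, 645702 and 630343 RPM. None of these 5 was below 250000 RPM. The other arm of the same precursor, m1080-3p, had at most 2 reads in any of the 6 libraries.

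The number of assigned reads moved with the grouping. The assigned reads came to 1536041 in T1 1, 1744433 in T3 1 and 1849522 in T3 2, against 2428679 in T1 2, 2527924 in T1 3 and 2446991 in T3 3. After m1080-5p was taken out the order turned, with 1201974 to 1662688 reads left in the low libraries and 1021621 to 1136422 in the high ones. One read was thus worth 0.601 to 0.832 RPM left in the low libraries and 0.88 to 0.979 in the high ones, and 3 reads, taken here as the detection limit, 1.80 to 2.94 over the 6 libraries. With more reads left, the low libraries still showed fewer predicted names, 314, 267 and 307 against 365, 347 and 316. In the study's read summary, clean small RNA reads ran the other way, with more in each low library than in each high one. A smaller part of the clean reads was thus assigned to names in the low libraries. In the RNA sequencing of the same animals, the uniquely mapped share was also lower for each low library than for each high one. The part of depth and of these library differences in the results below was not tested. The limit of 3 reads covers counting error only.

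The second marker, m1355-5p, stood the other way round. It took 37.0% of the reads left in T1 1, 39.9% in T3 1 and 32.3% in T3 2, compared with 10.2% in T1 2, 11.1% in T1 3 and 10.1% in T3 3. The libraries outside the grouping lay at 8.89% to 15.6%, next to the high libraries. The 95% Wilson interval of each of these shares was at most 0.173 percentage points wide. Together with m1356-5p, m0360-5p and m0753-5p, m1355-5p made up 83.4%, 84.1% and 82.3% of the reads left in the low libraries T1 1, T3 1 and T3 2. The same 4 names made up 39.7%, 42.6% and 39.0% in T1 2, T1 3 and T3 3, and 26.5% to 42.6% outside. The reads of the low libraries were thus spread over fewer names.

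**Figure D1:**
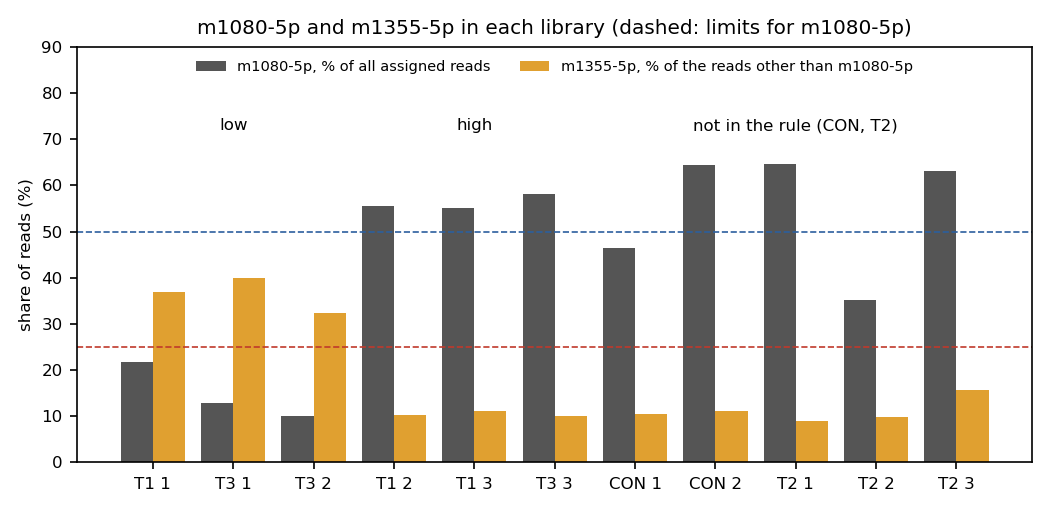
Share of m1080-5p among all assigned reads (grey) and of m1355-5p among the reads other than m1080-5p (orange), in percent, 1 pair of bars per library. The dashed lines are the limits on m1080-5p, 25% and 50%; the 3 low libraries have the lowest grey bars and the highest orange bars, 32.3% to 39.9%.

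Of 1377 names listed, 987 had reads in the 6 libraries. A mean of at least 10 RPM left was reached by 184 names besides m1080-5p, which held 99.9% of the reads left in each library. A name was counted where all 3 low libraries lay on one side of all 3 high libraries and the geometric means differed at least 2-fold. By this count 7 names were higher in the low libraries (3.8% of 184) and 101 were lower (54.9%). Without the fold limit the counts were 11 (5.98%) and 123 (66.8%). These percentages are those of the grouping itself, since the whole table is the background. The difference of log2 levels, low less high, had a median of -1.54 over the 184 names, and 161 differences were below 0. Within T1 and within T3 taken alone, 172 of the 184 names differed in the same direction.

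The number of names on each side changed with the scale. On the deposited RPM the counts were 18 higher and 70 lower, with a median of -0.60 log2. With RLE scaling (size factors from the median name, as in DESeq2) they were 24 higher and 65 lower, with a median of -0.33. With m1355-5p also taken out of the reads left, the counts were 11 higher and 85 lower, with a median of -1.10. On RPM left, m1355-5p, m1356-5p, m0360-5p and m0753-5p together held 82.3% to 84.1% in the low libraries and 39.0% to 42.6% in the high ones. The other names thus shared a smaller part in the low libraries. How much of the median of -1.54 on RPM left comes from this was not tested. The share of higher names among those counted was 6.48% on RPM left, 20.5% on deposited RPM and 27.0% with RLE. A set of 7 higher and 65 lower names was counted on RPM left, deposited RPM and RLE alike. These 3 scales differ only by 1 factor per library, and 7 and 65 are the smallest counts on each side. Being counted on all 3 is thus no separate support. Every one of those 65 was a predicted name, as 0 known names were lower on all 3.

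**Figure D2:**
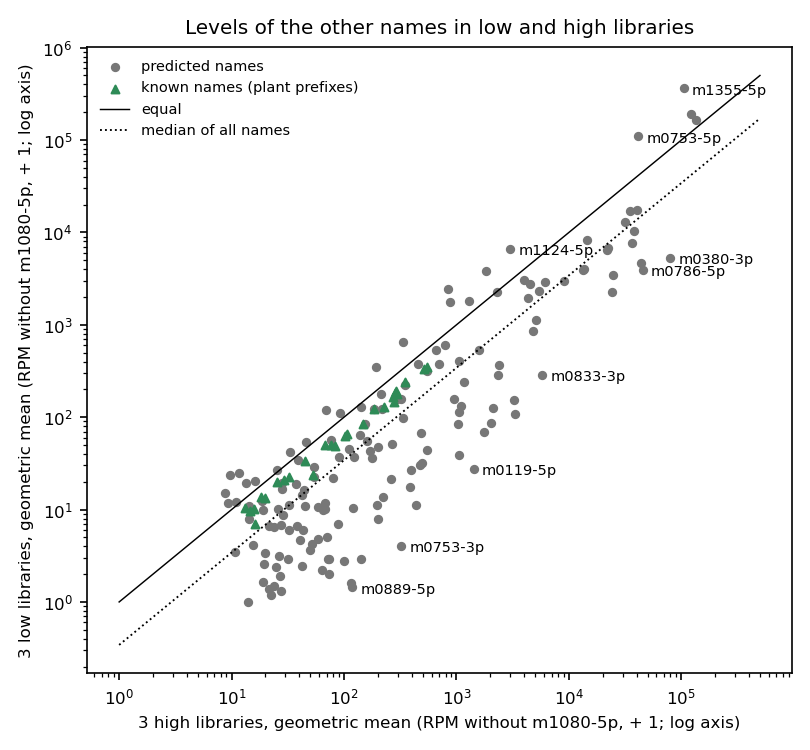
Geometric mean of the 3 low libraries (vertical) against that of the 3 high libraries (horizontal) for each of 184 names, in RPM left plus 1 on log axes. Most points lie below the line of equal levels, at a median of -1.54 log2 (dotted), while m1355-5p and m0753-5p lie above it.

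The 7 names higher in the low libraries included 2 of the 4 abundant names just given, m1355-5p and m0753-5p. m1355-5p stood at 370248 RPM left in T1 1, 399051 in T3 1 and 322647 in T3 2, and at 102405 in T1 2, 111459 in T1 3 and 100853 in T3 3. That is a 3.46-fold difference, or 1.79 on the log2 scale. m0753-5p stood at 109620, 97033 and 123647 RPM left in T1 1, T3 1 and T3 2, and at 39122, 45907 and 38874 in T1 2, T1 3 and T3 3, a 2.66-fold difference. In both names the 3 values of a kind lay close together and the groups were far apart. Relative to the median of all names these differences were 3.34 and 2.96 log2. With RLE the log2 differences of m1355-5p and m0753-5p were 3.04 and 2.66.

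The other 5 were much less abundant. m0609-5p held 2248, 2916 and 2287 RPM left in T1 1, T3 1 and T3 2 and 1351, 444 and 994 in T1 2, T1 3 and T3 3. m1124-5p held 8568, 6971 and 4934 against 1947, 3089 and 4446 in the same order, so T3 2 and T3 3 were near each other. Their log2 differences were 1.55 and 1.15. m1308-3p (1.07), m0307-5p (1.01) and m1358-3p (1.29) completed the set, the last with 35, 35 and 29 reads in the low libraries against 16, 10 and 5. m1356-5p and m0360-5p did not overlap either but differed by less than 2-fold, 1.56-fold and 1.20-fold higher in the low libraries. In each of these 5 names at least 1 CON or T2 library was above the lowest of the low libraries. For example, T2 1 held 4700 RPM left of m0609-5p, more than any low library.

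Names lower in the low libraries were found among the most abundant of the table. m0380-3p held 5472, 3965 and 6853 RPM left in T1 1, T3 1 and T3 2. In T1 2, T1 3 and T3 3 it held 74048, 74627 and 89255, which made it 14.9-fold higher there. CON and T2 libraries held 61694 to 83954, within or near the range of the high libraries. m0786-5p was 11.5-fold higher in the high libraries, with 5722, 2765 and 3857 RPM left in the low ones and 42160, 48721 and 44913 in the high ones. m0598-5p was 9.49-fold higher, with 6069, 3063 and 5343 against 48979, 45468 and 38140. These 3 names were together a visible part of every high library and a small part of each low one.

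m1358-5p was 3.65-fold higher in the high libraries, with 5820, 11140 and 16950 RPM left in T1 1, T3 1 and T3 2 and 37380, 43472 and 32963 in T1 2, T1 3 and T3 3. The low libraries thus differed among themselves more than the high ones. The log2 difference of m1358-5p was -1.87 on RPM left, -0.91 on deposited RPM and -0.62 with RLE. For m0867-5p (2.32-fold) and m1302-3p (2.04-fold), which were also lower in the low libraries on RPM left, the sign of the difference turned with RLE and TMM scaling. The difference of m1302-3p relative to the median of all names was 0.51 log2, above it.

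Of the 101 lower names, 73 differed over 4-fold and 53 over 8-fold. Low counts were part of this, since 27 of them had a low library at or under 3 reads and 5 had all 3 there. In 57 of them every low library had at least 10 reads. The largest differences were the following. m0119-5p had 39, 28 and 51 reads in T1 1, T3 1 and T3 2 against 1714, 1518 and 1372 in T1 2, T1 3 and T3 3, a 51.7-fold difference in RPM left. m1146-5p had 17, 9 and 20 reads against 452, 682 and 345, a 39.7-fold difference. Both names were above the detection limit of 3 reads in all 6 libraries, with a wide gap between the groups. The lowest count was the 9 reads of m1146-5p in T3 1. With a pseudocount of 10 the log2 differences of m0119-5p and m1146-5p were -5.28 and -4.46, against -5.69 and -5.31 with a pseudocount of 1.

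The remaining names of that rank were near the limit in the low libraries, so their fold values depend more on the pseudocount of 1. m0753-3p had 3, 3 and 9 reads against 258, 419 and 387. m0889-5p had 0, 3 and 0 reads against 108, 151 and 124. Summed over libraries this is a ratio of 173 with an exact 95% counting interval of 58.7 to 842. m0552-5p had 0, 0 and 5 reads against 207, 309 and 28, so T3 3 was far from the other high libraries. These names were all detected in every high library.

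A run of neighbouring numbers stood out and was chosen after its values were seen. Of the names numbered m1321 to m1348, 23 reached the filter, 15 of them from the 3p arm. All 23 differences were below 0 on RPM left, from -5.59 to -0.91 log2 with a median of -3.05. Of these names, 19 were counted as lower on RPM left, and 13 also on deposited RPM and with RLE. Of the other 134 predicted names 111 differences were below 0, with a median of -1.71, and 80 were counted as lower, beside 54.9% of all 184 names. m1321-3p had 15, 14 and 65 reads in T1 1, T3 1 and T3 2 against 427, 338 and 492 in T1 2, T1 3 and T3 3. m1325-3p had 4, 0 and 8 reads against 179, 123 and 158. m1324-3p had 0, 0 and 12 reads against 87, 45 and 124, and m1326-3p had 1, 1 and 10 against 117, 88 and 116. In these 4 names T3 2 was the highest of the low libraries. Whether numbers that follow each other lie near each other in the genome was not looked at here.

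**Figure D3:**
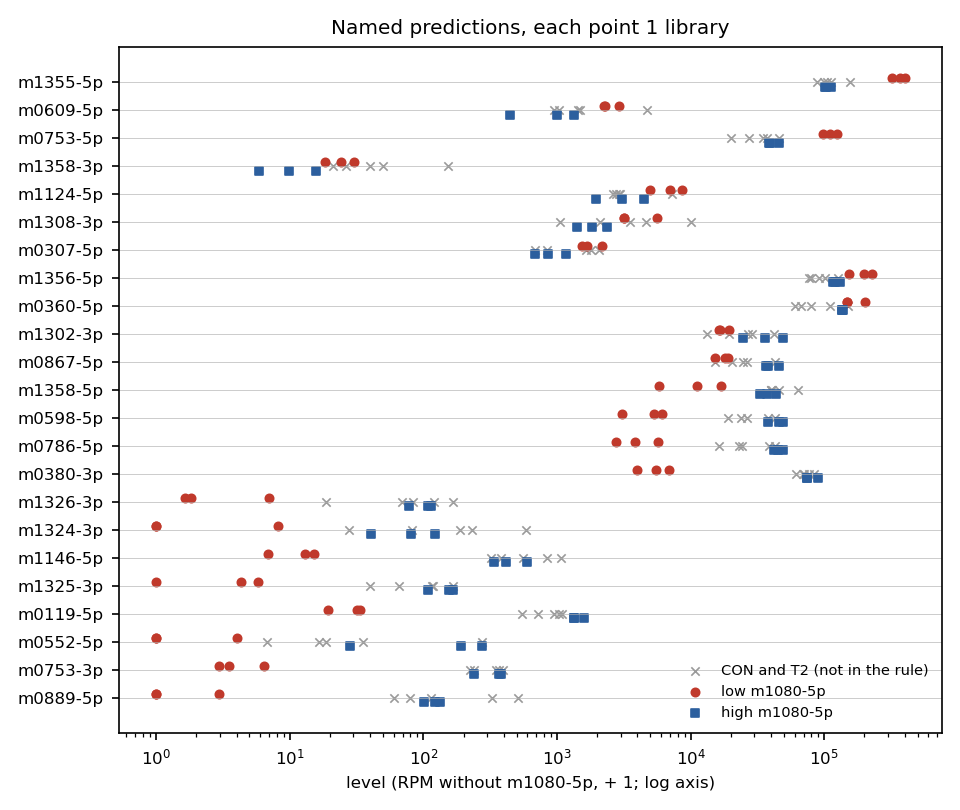
Level of 23 predicted names in RPM left plus 1 (log axis), each point 1 library: low libraries as circles, high libraries as squares, CON and T2 libraries as crosses. Names are ordered by the difference, and circles and squares do not overlap in any of them. For m1355-5p, m1356-5p and m0753-5p the circles are at higher levels than every square and cross of the same name.

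The difference also showed within precursors, where scaling plays no part. Both arms had at least 10 reads in all 6 libraries for 25 precursors. The ratio of 5p to 3p reads did not overlap between low and high libraries for 16 of them, being higher in the low libraries for 10 (40%) and lower for 6 (24%). The ratio differed over 2-fold for 17 of the 25. These shares describe the grouping itself, and nothing further is read from them.

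The widest differences were in m0833, m1213 and m0420. For m0833 the 5p arm took 67.1%, 76.1% and 65.6% of the reads of both arms in T1 1, T3 1 and T3 2, and 6.60%, 4.47% and 5.47% in T1 2, T1 3 and T3 3. For m1213 it took 36.6%, 22.9% and 39.0% in the low libraries and 88.8%, 93.6% and 88.0% in the high ones. In both precursors the prevailing arm was thus a different one in the low and the high libraries. For m0420 the 5p arm prevailed throughout, with 99.5%, 99.5% and 99.7% against 95.6%, 95.2% and 93.2%.

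The arm with more reads also differed in m0267 and m0380, which makes 4 of 25. In m0267 the 5p arm took 52.1%, 60.7% and 56.8% in the low libraries and 16.7%, 13.3% and 19% in the high ones. In m0380 it took 50.4%, 63.6% and 53.8% against 22.4%, 22.9% and 20.3%. The low libraries were closer to parity than the high ones in both. In T1 1 neither arm prevailed in these precursors, since the 95% Wilson intervals of the 5p share, 49.0% to 55.2% in m0267 and 49.5% to 51.2% in m0380, held 50%. The widest such interval over the 6 libraries spanned 9.10 percentage points in m1213, 6.47 in m0267, 5.21 in m0833, 1.70 in m0380 and 1.53 in m0420, and covers counting error within a library only. For m0380 both arms were lower in the low libraries on RPM left, by 14.9-fold for 3p and 3.27-fold for 5p. In m0753, whose 3p arm was too rare in the low libraries to enter the count of 25, the 5p arm was higher and the 3p arm lower. The precursor m0552 had 312, 345 and 385 reads of its 3p arm in T1 1, T3 1 and T3 2 against 1143, 1213 and 1399 in T1 2, T1 3 and T3 3, so both of its arms were lower.

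**Figure D4:**
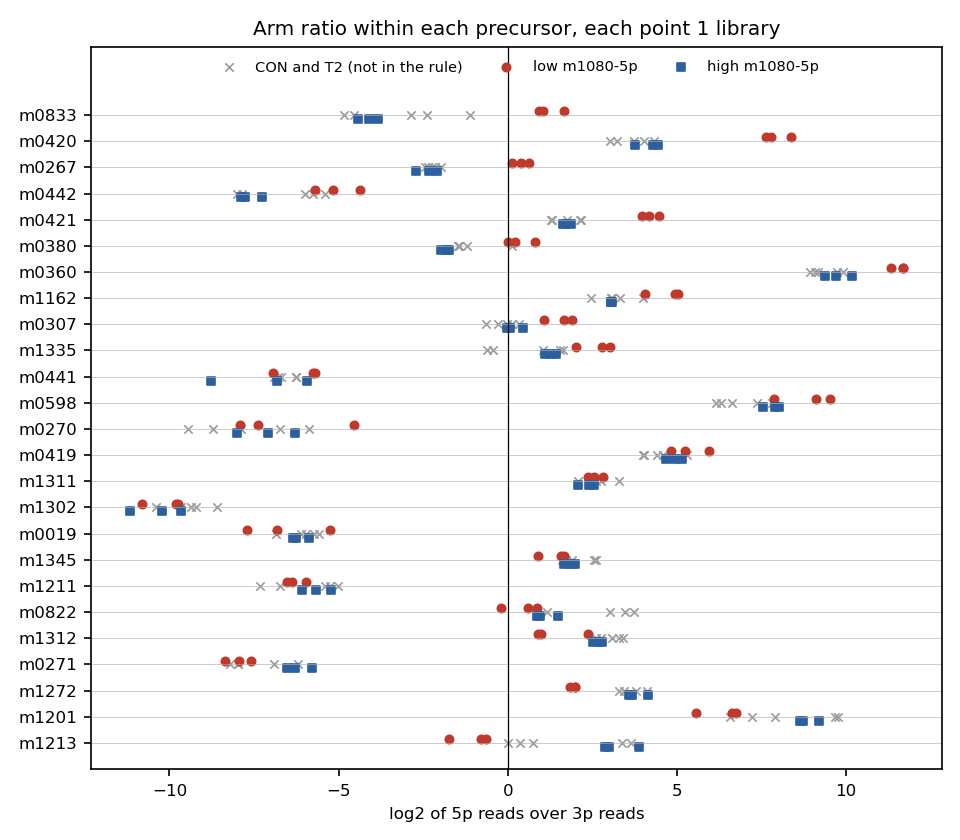
Log2 ratio of 5p to 3p reads for 25 precursors, each point 1 library, ordered by the difference between low (circles) and high (squares) libraries, with CON and T2 libraries as crosses. The difference runs from 5.33 in m0833 to -4.31 in m1213, and in 16 precursors circles and squares do not overlap.

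Known names, which carry the names of catalogued miRNAs with the prefixes of plant species, differed less and alike. They summed to 2757, 3130 and 2404 RPM left in T1 1, T3 1 and T3 2 and to 5431, 3874 and 4054 in T1 2, T1 3 and T3 3. Of the 27 that reached the filter, 0 were counted as higher and 2 as lower, and 16 were lower without overlap, with a median of -0.63 log2 and quartiles of -0.72 and -0.52. This direction belongs to the scale, as on deposited RPM the median was 0.29 with 25 of 27 above 0 and with RLE 0.58 with 26 above 0. The 157 predicted names had a median of -1.87 on RPM left, and theirs stayed below 0 on deposited RPM (-0.91) and with RLE (-0.74). By arm, 5 of 88 predicted 5p names were higher (5.68%) and 50 lower (56.8%). Of 69 predicted 3p names, 2 were higher (2.90%) and 49 lower (71.0%). Over all 184 names these shares were 3.80% and 54.9%, and over the 157 predicted names 4.46% and 63.1%.

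Conserved plant miRNA families were summed as a list. Of 28 families searched, 26 had a name in the tables and 11 reached a mean of 10 RPM left, of which 0 were higher and 5 lower in the low libraries without overlap. By the same count 5.98% of all 184 names were higher and 66.8% lower. Their median was -0.62 log2 on RPM left, close to that of all known names, and with the same dependence on the scale. The miR166 family, which in plants targets transcription factors of leaf polarity, held 692, 776 and 596 RPM left in T1 1, T3 1 and T3 2 and 1297, 915 and 991 in T1 2, T1 3 and T3 3. The miR396 family, which in plants targets growth-regulating factors, held 515, 596 and 479 against 1017, 700 and 750. In both families T1 2 was the highest of the 6 libraries, though T2 3 was higher still with 1612 and 1107, and the gap between the groups was small. Outside the grouping both families were almost absent from CON 1, with 6.16 and 0 RPM left, and from T2 2, with 0.97 and 2.91. T2 1 was below every low library in both, and CON 2 was within the range of the high libraries. CON 1 and T2 2 had 28 and 19 known names, fewer than any other library.

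Of the 9 miRNAs in the networks of the study, a list the study chose on these samples, 3 reached the filter. Of these 3, 1 (33.3%) was counted as lower, beside 54.9% of all 184 names and 7.41% of the 27 known names. ata-miR166d-3p_R1-20L21 had 433, 612 and 495 reads in T1 1, T3 1 and T3 2 against 710, 537 and 529 in T1 2, T1 3 and T3 3, 1.55-fold higher in the high libraries on RPM left. sly-miR482e-3p_R1-21L22 was 1.75-fold higher there, and gma-miR6300_R2-18L18 2.33-fold, with 5 to 14 reads in the low libraries and 13 to 19 in the high ones. On deposited RPM and with RLE and TMM scaling the first 2 were higher in the low libraries.

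Libraries of one kind, low or high, resembled each other more than libraries of one altitude did. The kinds were chosen from a measured value of these libraries and altitude was not, so this is a description only. Spearman's correlation over the 184 names was 0.949 to 0.961 for the 6 pairs of one kind and 0.776 to 0.833 for the 9 pairs of different kinds. The 4 pairs of one kind but different altitude lay at 0.949 to 0.957, and the 4 pairs of one altitude but different kind at 0.776 to 0.833. These values are across names, which are not independent. Pairs of one altitude had a mean of 0.863 and pairs of different altitudes a mean of 0.872. The difference of -0.0093 gave p = 0.3 in an exact one-sided permutation test over the 20 assignments of the 6 libraries to groups of 3, where 0.1 is the smallest p possible. It changed sign without T1 1 (0.027) and without T3 3 (0.038), the lone library of its kind at each altitude. No pair of the 6 libraries agreed within sampling noise, with a chi-square per degree of freedom of 56.6 or higher, and none was taken for a library deposited in duplicate.

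**Figure D5:**
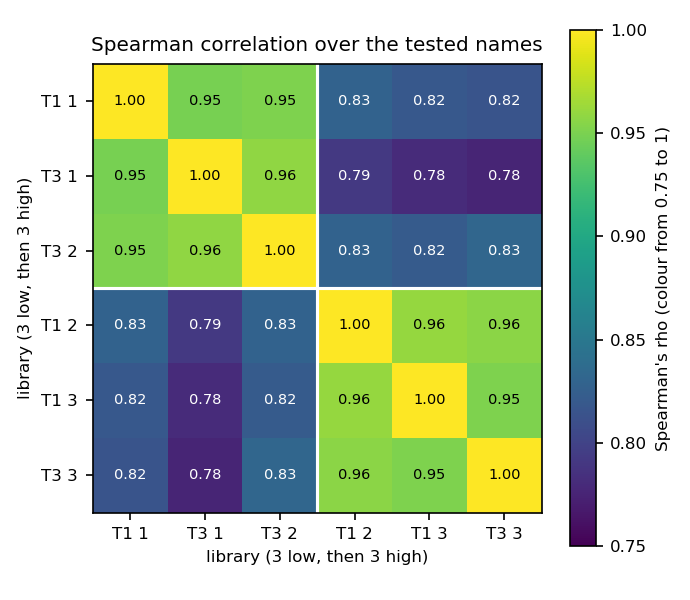
Spearman's correlation between each pair of the 6 libraries over 184 names, with the low libraries first and white lines between the kinds. Pairs within a kind are at 0.949 or higher and pairs across kinds at 0.833 or lower, at either altitude.

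The altitude comparison, T3 against T1, is the one the study designed and does not use the m1080-5p level. With limma on log2(RPM left + 1), 0 of 184 names (0%) passed a Benjamini-Hochberg adjusted p of 0.05 and a 2-fold change. The study itself, with DESeq2, listed miRNAs as up- and downregulated between these altitudes. Why its result differs from the 0 here was not looked at. An unadjusted p under 0.05 was reached by 3 names with limma, by 3 with edgeR and by 7 with DESeq2, and 0 names passed after adjustment with either of the others. By overlap, 0 names (0%) were higher and 7 (3.8%) lower in T3 with at least a 2-fold difference. These counts cannot be weighed against those of the m1080-5p grouping, which was chosen from measured values of the same libraries. The animals of one altitude are separate, so the spread includes that between animals. The median residual SD over names was 1.05 log2 with altitude alone and 0.44 with the m1080-5p grouping as a second term. That grouping was set from measured values of the same libraries, so nothing is read from the drop.

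With that second term, which was itself set from measured values, 1 name, m0270-5p, passed the same threshold, and nothing is read from that fit. Its reads were 164 in T1 1, 200 in T1 2 and 309 in T1 3, and 19, 42 and 108 in T3 1, T3 2 and T3 3. All T3 libraries were below all T1 libraries, and at each altitude the low libraries were below the high ones. With altitude alone the log2 difference was -2.51 with an SE of 0.83 and an adjusted p of 0.904 in limma. It was named after its values were seen. m0270-3p, the other arm and the more abundant one, was 7.16-fold higher in the high libraries.

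By the counted names and most arm ratios, the 5 libraries outside the grouping were nearer to the high ones. By the sum of known names CON 1, T2 1 and T2 2 were not, as each was below every low library in RPM left. Of the 108 counted names, the level was nearer to the high mean than to the low mean for 89 in CON 1, 99 in CON 2, 90 in T2 1, 96 in T2 2 and 95 in T2 3, and for 79 names in all 5. Of the 16 precursors whose arm ratio did not overlap, it was nearer to the high libraries for 13 in CON 1, 15 in CON 2, 9 in T2 1, 12 in T2 2 and 15 in T2 3. T2 2 had the lowest m1080-5p of these 5, 351091 RPM, with 96 names and 12 precursors nearer to the high libraries. T2 1 had the highest, 645702 RPM, with 90 names and 9 precursors. Whether the counts go with the level of m1080-5p was not tested. Among all 11 libraries the 4 abundant names exceeded 80% of the reads left only in the 3 low ones.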

How the data were processed

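Small RNA libraries of lung tissue were analysed from the tables deposited per library. As the methods of the study describe, the authors filtered and trimmed reads, set other small RNAs aside by Rfam, named known miRNAs from miRBase, and predicted further ones with Bowtie2 and MIREAP on BosGru_v2.0. The authors deposited RPM values, which sum to 1000000 per library. All 4651 values above 0 (100%) were whole multiples of 1 read within 0.01, and the reads so recovered were used. No sequence or coordinate of a name was used here.

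The m1080-5p reads were taken out and RPM recomputed, with a pseudocount of 1 and a mean of at least 10 over the 6 libraries. Altitude was tested two-sided with limma 3.58.1 in R 4.3.3, with edgeR 4.0.16 (TMM) and DESeq2 1.42.0 on recovered reads as alternatives. Other values came from Python 3.11.15, numpy 2.4.6, pandas 2.3.3 and scipy 1.17.1. Of the tests, limma and edgeR were also run on simulated data, with results not given here. The names given were the markers, the 10 most abundant, up to 8 per direction with the largest ratio, the network list, plant families and other arms. Groups, members and lists were chosen with earlier results of these data known.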

Additional observations from a re-analysis of the deposited data

Results flagged for a closer look

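m1325-5p, the rare arm of its precursor, differed between low and high libraries in opposite directions at the 2 altitudes. In T1 the low library was higher than both high libraries, by 0.38 on the log2 scale, with 6 reads in T1 1 against 4 and 4 in T1 2 and T1 3. In T3 both low libraries were below the high one, with 0 and 1 reads against 9. The difference between altitudes was not tested, and all these counts were 9 or lower.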

How the results depend on the processing

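Names higher in the low libraries numbered 7 as reported. They numbered 18 on deposited RPM, 11 with m1355-5p also taken out, 24 with RLE, 21 with TMM, 11 without the filter on low levels, 11 without the fold limit and 0 with a fold limit of 4. Leaving out 1 library at a time gave 5 to 10. Names lower in the low libraries numbered 101, and 65 with RLE, 66 with TMM, 54 at a mean of at least 100 and 57 with at least 10 reads in every library, both of which examine fewer names. Leaving out 1 library gave 100 to 108. Precursors with an arm ratio that did not overlap were 16 of 25, 22 of 34 from 3 reads an arm, 11 of 15 from 30 reads, and 16 to 20 without 1 library. In the altitude comparison limma called 0 names, 3 at an unadjusted p and 1 with the m1080-5p grouping as a term, and 0 whichever library was left out. The within less between altitude correlation ranged from -0.033 to 0.038 over libraries left out.

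Single names that did not overlap and whose difference turned were m0867-5p (0.030 with RLE, 0.044 with TMM), m1302-3p (0.22 and 0.23), ata-miR166d-3p_R1-20L21 (0.33 on deposited RPM, 0.61 and 0.63) and sly-miR482e-3p_R1-21L22 (0.15, 0.43 and 0.45). Of the names that overlapped between low and high libraries, m1302-5p (-0.77) turned to 0.13 on deposited RPM, 0.41 with RLE and 0.43 with TMM, and m0307-3p (-0.38) to 0.58, 0.87 and 0.88 and to 0.12 with m1355-5p also taken out. These settings change only the factor that divides each library. Over all named names and settings 280 values moved by less than 1 SD between libraries, 110 moved by more in the same direction and 17, in these 6 names, turned.

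Same-numbered libraries of T1 and T3 correlated at 0.69, -0.54 and 0.71. These values followed the grouping: T1 1 and T3 1 were both low, T1 3 and T3 3 both high, and T1 2 and T3 2 of different kinds. They therefore cannot decide whether the numbers pair the animals. By the study's sample list the animals of T1 and T3 came from different sites. A fit with the replicate block called 0 names. Depth limits names under 10 reads in the low libraries.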
